A study of Mus musculus with 6 samples.

Results

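Chemokines and their receptors were measured by 71 probe sets covering 53 genes, 32 ligands and 21 receptors, out of 22690 probe sets on the array. The members were picked by gene symbol alone: a probe set belonged when the platform annotation gave it exactly 1 gene whose symbol begins with Ccl, Cxcl, Cx3cl, Xcl, Ccr, Cxcr, Cx3cr, Xcr or Ackr followed by a digit. A further 4 probe sets list several genes, at least 1 of them a chemokine, and were left out. RNA of 6 tumors was hybridised to 1 Affymetrix array each, 3 tumors of the duodenum and 3 of the cecum, from 6 different mice. All were Rb1 deficient Apc1638N mice: Apc1638N is a germline mutation of Apc, a brake on Wnt signalling, under which intestinal tumors form, and Rb1 encodes the retinoblastoma protein, a brake on the cell cycle. Duodenal samples could include tumor tissue from the pylorus, the outlet of the stomach. The sources used here do not give the way Rb1 was lost, the cells that lost it, or the mice's age and strain. Normal gut and Rb1-intact tumors were not analysed here. The comparison asked how tumors of both sites differ.

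Chemokines are small secreted proteins that bind G protein-coupled receptors on leukocytes and direct their migration. Homeostatic members place lymphocytes in particular tissues: in the gut, Ccl25 made by small intestinal epithelium and Ccl28 made by epithelium of the large intestine and of glands draw lymphocytes that carry Ccr9 and Ccr10. Inflammatory members are induced by cytokines and recruit neutrophils, monocytes or eosinophils, and atypical receptors of the Ackr group bind chemokines without classical G protein signalling.

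Marker genes were checked against the labels. All 10 intestinal epithelial markers were bright enough to be tested, and their summed intensity ran from 55416.8 to 62027.9 in duodenal and from 69561.9 to 73453.2 in cecal tumors. Of these, 4 were higher in cecal tumors: Cdx1, Cdx2, Cdh17 and Vil1, the last with an adjusted p of 0.0264 that became 0.0549 to 0.1 when any 1 tumor other than duodenal tumor 3 was left out. With the replicate number as a block Krt20 also passed (adjusted p = 0.00673). Without the block, 5.24% of all tested probe sets passed with cecal and 4.07% with duodenal tumors higher. Gastric and pyloric markers summed to 56139.8 to 85806.7 in duodenal tumors and to 582.9 to 817.3 in cecal tumors, and 9 of 9 tested were higher in duodenal tumors, 8 of them dim in all cecal tumors and so tested only through the duodenal ones. Rb1 was at 306.7 to 358.9 in duodenal and 337.8 to 387.5 in cecal tumors, and which part of the transcript its probe set covers was not determined, so it checks no label. In bulk tumor RNA, fewer cells of a type and less RNA per cell cannot be told apart. The 3 tumors of a site are separate animals, and their number limits the precision of every value.

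Of the 71 probe sets, 29 (of 21 genes) entered the test, meaning that they were above the 40th percentile of their array (92.5 to 100.7) on at least 3 arrays. The remaining 42 stayed dim: 40 of them lay below that level on every array. Of the 32 ligand genes 16 had a tested probe set, and of the 21 receptor genes 5 did. Tumors of the 2 sites differed in 9 probe sets of 7 genes (limma on log2(intensity + 16), adjusted p below 0.05 over 13859 tested probe sets). Cecal tumors were higher in 5 probe sets, of Ccl9, Ccl28 and Cxcl13, and duodenal tumors in 4, of Ccl25, Cxcl17, Ccl20 and the receptor gene Cxcr4. That is 31.0% of the tested chemokine probe sets, where 9.31% of all tested probe sets passed in either direction, 5.24% with cecal and 4.07% with duodenal tumors higher. In 4 of the 9 (Cxcl17, Ccl20, and a probe set each of Ccl28 and Cxcl13) a whole site was dim, so that they were tested only through the bright site. Their direction was thus largely set by the filter. Both tumors numbered 2 came from female mice by their sex-linked genes, so the comparison was also run with the male arrays alone, where 5 of the 9 passed, 3 with cecal and 2 with duodenal tumors higher.

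**Figure D1:**
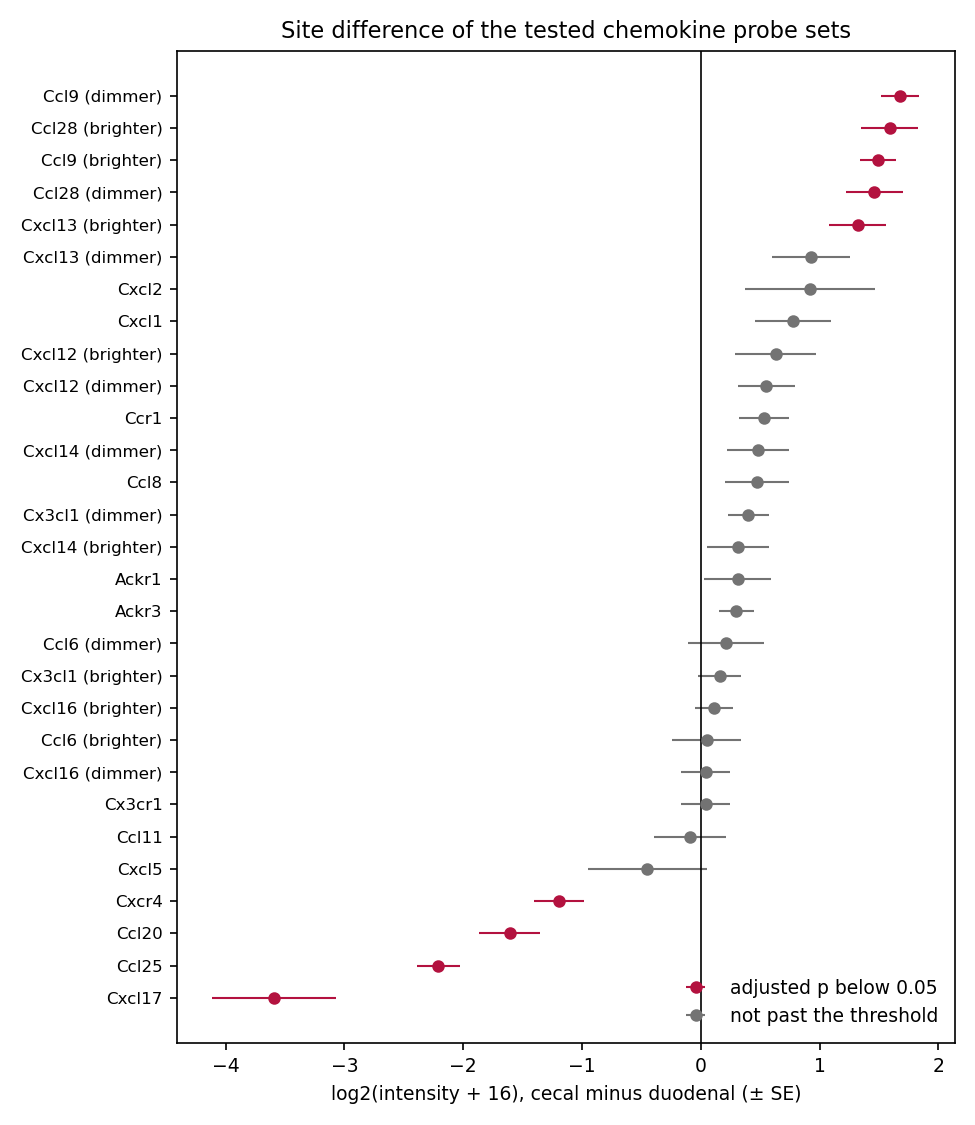
Log2 difference between cecal and duodenal tumors, with its limma standard error, for the 29 tested chemokine and receptor probe sets; where a gene has 2, the brighter and the dimmer are named, and red marks an adjusted p below 0.05. Values run from -3.59 for Cxcl17 to 1.68 for the dimmer Ccl9 probe set.

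The median log2 difference of the 29 was 0.31, cecal minus duodenal, against -0.04 over all tested probe sets. A positive difference was found for 23 and a negative one for 6. Values of the sites did not overlap for 12 of the 29 (41.4%), where 29.5% of all tested probe sets showed no overlap. All 8 genes with a pair of tested probe sets gave both the same sign.

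The mucosal ligands split by site. Ccl25, known as the small intestinal ligand of Ccr9, had intensities of 718.7, 699.2 and 748.3 in duodenal tumors 1, 2 and 3 and of 116.2, 134.1 and 189.2 in cecal tumors. The duodenal tumors lay close together and far above every cecal tumor, which were still above the dim level. The log2 difference was -2.21 ± 0.18 (SE), with means of 722.1 ± 24.7 (SD, n = 3) and 146.5 ± 38.0 (n = 3) and an adjusted p of 0.000314. Leaving out any 1 tumor kept the difference between -2.39 and -2.07.

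Ccl28, a ligand of Ccr10 and Ccr3 with antimicrobial activity, went the other way. Its brighter probe set was at 129.4, 141.7 and 107.0 in duodenal tumors against 558.9, 424.9 and 288.3 in cecal ones. Every cecal tumor exceeded every duodenal one, and cecal tumor 1 was the highest. The log2 difference was 1.59 ± 0.24 (SE; adjusted p = 0.00576). The dimmer probe set was at 78.2, 54.4 and 86.1 in duodenal tumors, all below the 40th percentile, and at 273.7, 252.2 and 165.8 in cecal tumors. The cecal mean was thus at least 2.24-fold above the duodenal mean (adjusted p = 0.00832), with the direction set largely by the filter. On male arrays it did not pass (adjusted p = 0.0682), while the brighter one did (0.0362).

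Ccl20, the ligand of Ccr6 that is known from the epithelium over gut lymphoid follicles, was at 115.7, 170.1 and 167.5 in duodenal tumors against 23.9, 46.4 and 47.7 in cecal ones. All cecal tumors were dim and all duodenal tumors were above the dim level, so the filter largely set the direction. By the site means, Ccl20 was at least 1.55-fold higher in the duodenum, a bound set by the dim level of the cecal arrays, with a fitted log2 difference of -1.61 ± 0.26 (SE; adjusted p = 0.00832). With the male arrays alone the difference was -1.62 and did not pass (adjusted p = 0.0511). Ccl27a, grouped here with the mucosal ligands, stayed between 48.7 and 77.4 on its only member probe set and was not tested. A left-out probe set that lists Ccl27a beside other genes was at 105.8, 118.9 and 171.7 in duodenal tumors. In cecal tumors, where it was dim, it was at 75.4, 65.7 and 93.9, and it did not pass (log2 difference -0.64, adjusted p = 0.139). Another left-out probe set with the same genes lay between 27.9 and 54.5.

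Promoter sequences of 4 ligands are given as a view of what lies upstream of genes that moved in opposite directions between the sites. They are RefSeq windows on GRCm38.p6 from 250 bases before to 50 after the annotated start, which the table holds for 40 of the 53 genes and for 6 of the 7 that differed. Capitals mark matches, on either strand, to the letters GGNNTTTCC (an NF-kB-like site), TTTATG (a Cdx-like site) and TATAAA (a core promoter element), where an overlapping pair of TATAAA matches on opposite strands reads TTTATAAA.
Ccl25, chr8:4349338-4349637, plus strand: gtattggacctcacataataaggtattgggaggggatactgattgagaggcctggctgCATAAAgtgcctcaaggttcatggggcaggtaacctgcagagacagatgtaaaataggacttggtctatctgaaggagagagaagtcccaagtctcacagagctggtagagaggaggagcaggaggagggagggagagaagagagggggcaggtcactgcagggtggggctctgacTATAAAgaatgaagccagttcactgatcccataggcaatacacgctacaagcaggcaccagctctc
Ccl20, chr1:83116516-83116815, plus strand: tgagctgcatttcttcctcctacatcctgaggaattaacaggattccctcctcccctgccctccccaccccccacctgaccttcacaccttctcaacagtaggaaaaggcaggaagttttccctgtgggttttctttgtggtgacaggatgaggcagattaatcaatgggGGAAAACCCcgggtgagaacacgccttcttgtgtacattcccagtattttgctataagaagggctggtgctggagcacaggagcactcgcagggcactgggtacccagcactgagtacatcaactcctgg
Ccl28, chr13:119623569-119623868, plus strand: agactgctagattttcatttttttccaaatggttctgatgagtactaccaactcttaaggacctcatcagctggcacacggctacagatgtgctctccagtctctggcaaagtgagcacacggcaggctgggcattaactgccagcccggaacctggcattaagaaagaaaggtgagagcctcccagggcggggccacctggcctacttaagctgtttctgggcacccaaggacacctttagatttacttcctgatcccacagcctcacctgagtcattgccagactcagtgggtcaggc
Ccl9, chr11:83578587-83578886, minus strand: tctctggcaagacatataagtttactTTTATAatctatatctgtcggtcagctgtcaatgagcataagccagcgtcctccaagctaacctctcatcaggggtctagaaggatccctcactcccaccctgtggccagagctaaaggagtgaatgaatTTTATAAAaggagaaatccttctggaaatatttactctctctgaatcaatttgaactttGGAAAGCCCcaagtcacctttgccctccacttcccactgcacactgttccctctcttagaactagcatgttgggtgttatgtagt
Ccl25 is listed with 2 starts, and the window printed is that of the downstream one. It held a TTTATG match 192 bases and a TATAAA match 16 bases before the start, and the Ccl28 window held none of the 3 motifs. The Ccl20 window held a GGNNTTTCC match 80 bases and the Ccl9 window one 35 bases before the start, beside 3 TATAAA matches. Of the windows not printed, that of the upstream Ccl25 start held no match. That of Cxcl13, higher in cecal tumors, held a TTTATG match 170 bases and a TATAAA match 46 bases before the start. That of Cxcr4, higher in duodenal tumors, held only TATAAA matches. Of all 32851 windows of the table, 5.82% held GGNNTTTCC, 11.9% TTTATG and 13.6% TATAAA. These matches describe letters and were not tested as sites. The array values do not show which start was used.

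Receptors of these ligands were dim at both sites. Ccr9 was measured by 3 probe sets, whose intensities ran from 1.6 to 61.9 in duodenal and from 1.4 to 35.4 in cecal tumors. Ccr10 was at 21.0, 40.5 and 38.2 in duodenal tumors against 56.2, 57.0 and 59.8 in cecal ones, without overlap but below the dim level throughout. With no filter on dim probe sets its log2 difference was 0.61 and did not pass (adjusted p = 0.214). Ccr6 lay between 49.9 and 89.8, and Ccr3, the eosinophil receptor, between 2.9 and 18.1.

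**Figure D2:**
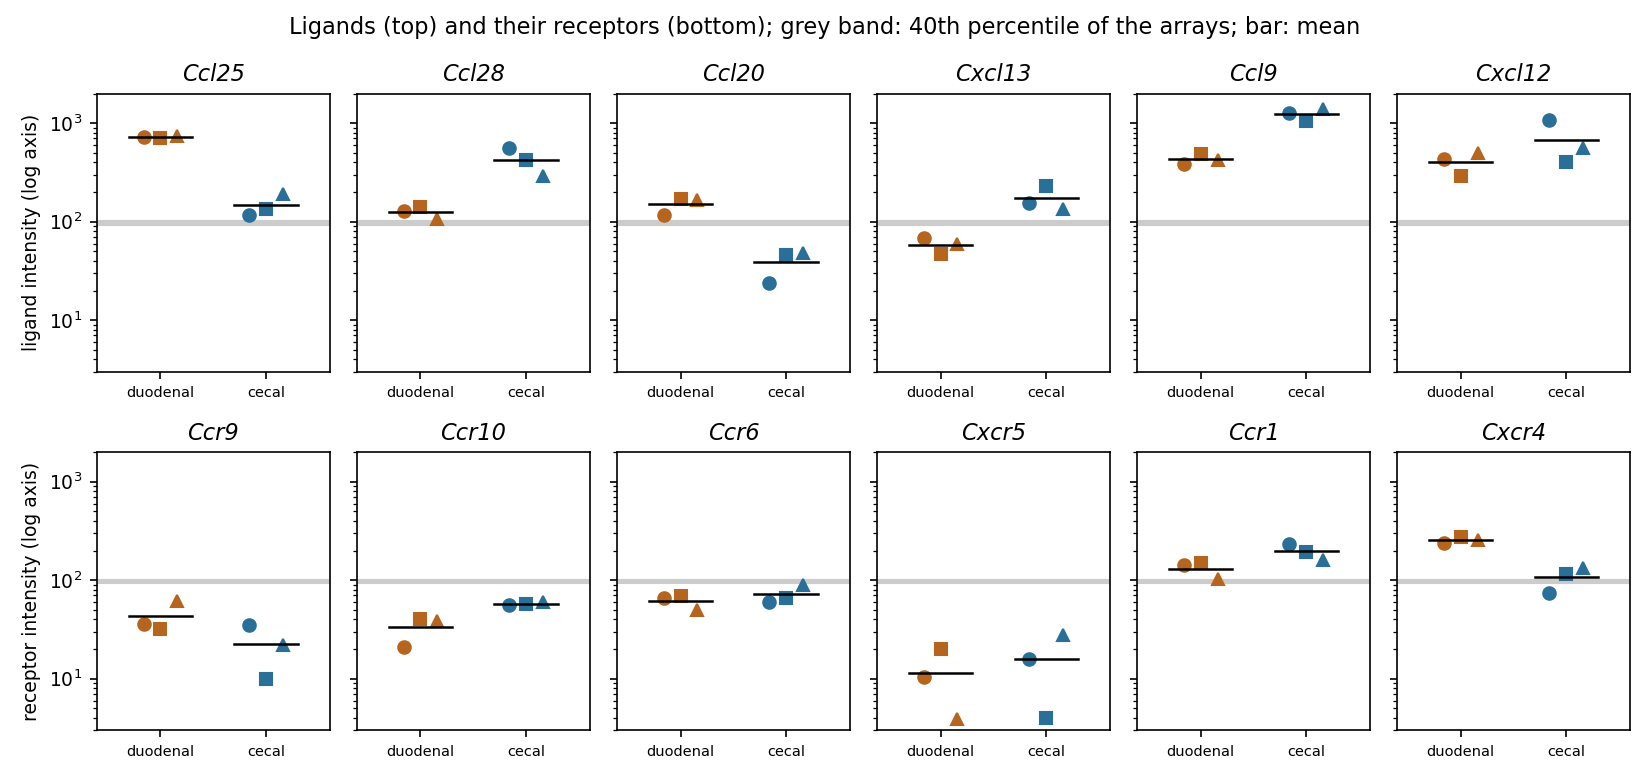
Intensity on a log axis of 6 ligands (top) and a receptor of each (bottom) in 3 duodenal and 3 cecal tumors, by the brightest probe set of each gene; circle, square and triangle are tumors 1, 2 and 3, bars are means of 3 and the grey band is the 40th percentile of the arrays. The ligands Ccl25 and Ccl28 separate the sites in opposite directions, while Ccr9, Ccr10, Ccr6 and Cxcr5 lie below the band on all arrays.

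Cxcl17, a mucosal chemokine of stomach and airway epithelium, had the lowest log2 difference of the 29 tested chemokine and receptor probe sets. It was at 1237.3, 316.5 and 890.2 in duodenal tumors against 48.7, 79.1 and 19.1 in cecal ones. Every cecal tumor was dim, so the filter largely set the direction, and duodenal tumor 2 was the lowest of its site. The duodenal mean was at least 7.31-fold above the cecal mean (log2 difference -3.59 ± 0.52 SE, adjusted p = 0.00474). The gap was narrower between the tumors numbered 2 (-1.81) than between those numbered 1 (-4.28) or 3 (-4.69).

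Gastric and pyloric markers stood beside it: their sum was 66231.8, 56139.8 and 85806.7 in duodenal tumors 1, 2 and 3. Muc5ac, a gastric mucin, was at 2430.2, 467.2 and 4185.1, and Gast, the antral hormone gastrin, at 2805.0, 134.6 and 1319.9. Both were lowest in duodenal tumor 2, as was Cxcl17. Of the 9 markers, 7 were lowest in duodenal tumor 2 and the other two, Gkn2 and Tff1, in duodenal tumor 1. Gkn1, a gastric secreted protein, was at 12715.3, 12495.9 and 17057.3, nearly equal in duodenal tumors 1 and 2. The part of pyloric tissue in the Cxcl17 difference was not tested.

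**Figure D3:**
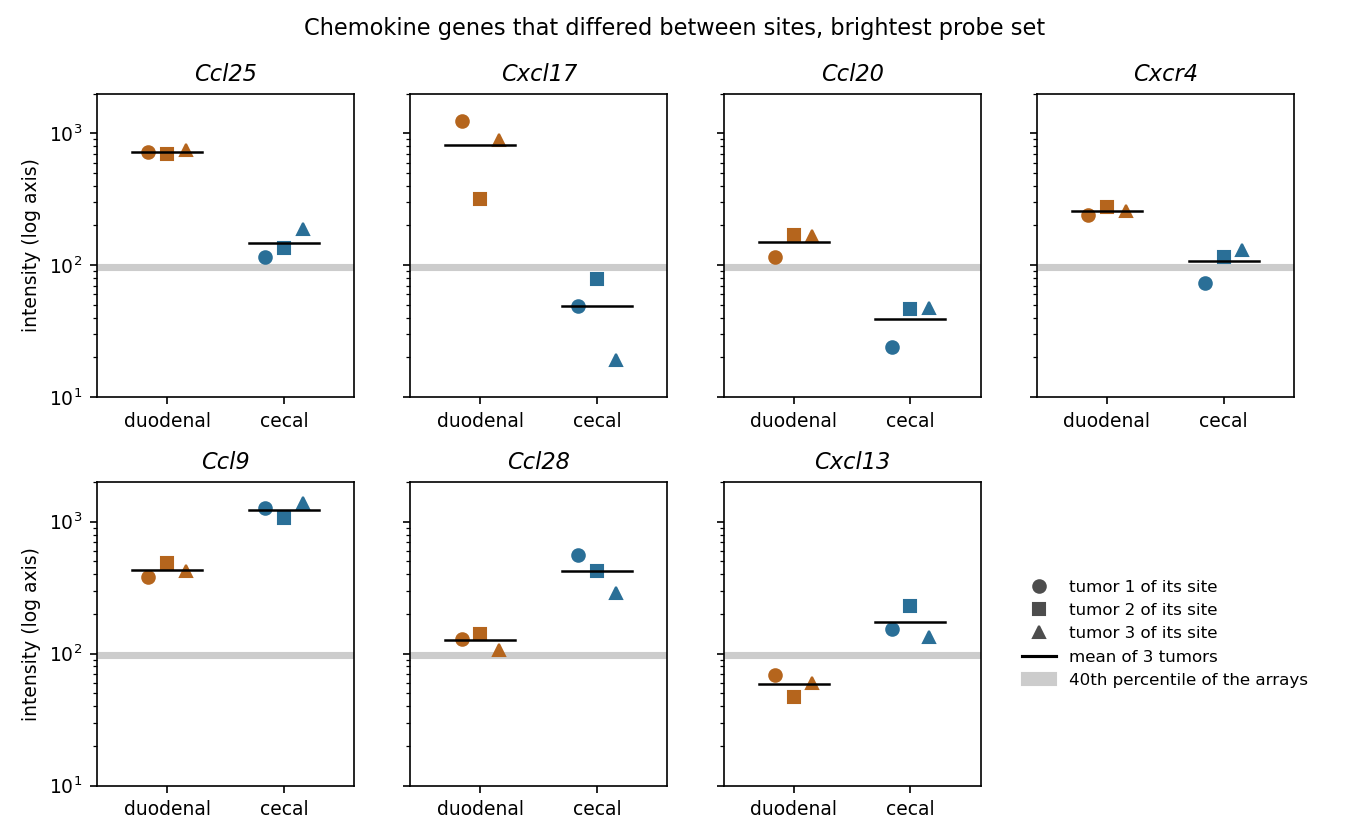
Intensity on a log axis of the 7 chemokine genes that differed between sites, by the brightest probe set of each; points are single tumors, bars are means of 3 and the grey band is the 40th percentile of the arrays (92.5 to 100.7). Ccl25, Cxcl17, Ccl20 and Cxcr4 are higher in duodenal tumors, and Ccl9, Ccl28 and Cxcl13 in cecal tumors.

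Among inflammatory CC ligands, Ccl9 was higher in cecal tumors. Ccl9, a mouse ligand of Ccr1, is known to draw immature myeloid cells. Its brighter probe set was at 384.0, 483.0 and 420.1 in duodenal tumors against 1275.0, 1058.4 and 1376.9 in cecal ones. The lowest cecal tumor was above the highest duodenal one, and the log2 difference was 1.49 ± 0.15 (SE; adjusted p = 0.000895).

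A second Ccl9 probe set, at 180.0, 229.8 and 194.1 against 652.7, 596.8 and 789.7, differed by 1.68 ± 0.16 (SE; adjusted p = 0.000672). Across single tumors left out, the difference stayed between 1.41 and 1.60 for the brighter and between 1.57 and 1.77 for the dimmer probe set. Both were still called with the male arrays alone (adjusted p = 0.00273 and 0.00315).

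Ccr1, the receptor of Ccl9, was at 141.5, 148.2 and 102.4 in duodenal tumors against 234.4, 193.2 and 159.6 in cecal ones. The values did not overlap, and the log2 difference of 0.53 ± 0.21 (SE) did not pass (adjusted p = 0.169). A second Ccr1 probe set lay between 1.8 and 27.4 and was not tested. Macrophage and monocyte markers summed to 8749.2 to 10253.5 in duodenal and 10487.2 to 12676.2 in cecal tumors. None of their 9 tested genes passed, and Itgam, Fcgr1 and Cd163 were dim on all arrays. Of the 13 on the array, 5 did not overlap with cecal tumors higher (Cd14, Mrc1, Lyz2, Itgam and Msr1), and 1 with duodenal tumors higher (Cd68). The rest, Csf1r among them, overlapped. Itgam and Msr1 were too dim for the test. Over all probe sets, counting both directions, 29.5% of tested and 15.8% of untested ones did not overlap. Cd14, a coreceptor for bacterial lipopolysaccharide, was at 1001.4 to 1233.6 in duodenal and 1287.0 to 1722.5 in cecal tumors (log2 difference 0.40, adjusted p = 0.145). Their part in the Ccl9 difference was not tested.

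Other inflammatory CC ligands that were bright enough did not pass. Ccl6, a mouse myeloid chemokine, was at 1137.0, 729.7 and 513.9 in duodenal tumors against 589.4, 872.2 and 927.1 in cecal ones. Duodenal tumor 1 was the highest of all and duodenal tumor 3 the lowest, so the log2 difference was 0.05 ± 0.29 (SE; adjusted p = 0.939). A second Ccl6 probe set, which may share sequence with other transcripts by its name suffix, had 397.4, 195.8 and 136.3 against 257.0, 255.4 and 264.7 (0.21 ± 0.32, adjusted p = 0.751). Ccl8, a monocyte and T cell chemokine, was at 176.0, 254.5 and 129.0 against 335.2, 256.4 and 195.2, and 2 of the 3 cecal tumors lay above all duodenal ones (0.47 ± 0.27, adjusted p = 0.345). Ccl11, eotaxin, the eosinophil attractant, was at 308.5, 502.5 and 190.4 against 305.8, 313.7 and 253.0, with the cecal tumors inside the duodenal range (-0.09 ± 0.30, adjusted p = 0.889). The eosinophil markers Siglecf, Epx, Prg2 and Il5ra were dim on all arrays, with sums of 50.9 to 61.3 in duodenal and 34.8 to 77.2 in cecal tumors.

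Ccl2, the main monocyte attractant, was just too dim for the test. Its mean was 46.7 ± 17.2 (SD, n = 3) in duodenal tumors, and it was at 97.3, 113.7 and 91.8 in cecal ones. The values did not overlap, but only 2 cecal tumors were above the dim level. With no filter its log2 difference was 0.93 (adjusted p = 0.0893). Its relative Ccl7, another ligand of Ccr2, was dim throughout, at 29.7, 24.9 and 14.0 against 47.3, 35.0 and 51.0, without overlap (0.65 with no filter, adjusted p = 0.197), and Ccl12 lay between 55.5 and 98.3. Their receptor gene Ccr2 stayed between 17.2 and 86.7 across 3 probe sets. The T cell and macrophage attractant Ccl5 was at 6.3, 33.1 and 6.1 against 26.0, 93.6 and 46.8, and Ccl1, Ccl3, Ccl4 and Ccl24 did not exceed 62.9 on any array. Of the 42 untested probe sets, 8 (19.0%) did not overlap between the sites, all 8 with cecal tumors higher (of Ccl2, Ccl7, Ccl24, Cxcl11, Ccr2, Ccr10, Xcr1 and Ackr2). Of all 8767 untested probe sets, 15.8% did not overlap, 7.51% with cecal and 8.25% with duodenal tumors higher. Counting both directions, the members' share was near the background. By direction, all of the 19.0% had cecal tumors higher, against 7.51%. Apart from Ccl2, these probe sets were dim on every array, with Ccl24 at 5.0 to 11.4. Other probe sets of Ccr2, Cxcl11 and Ackr2 overlapped. The lean to cecal tumors among dim probe sets was not tested. With no filter the lowest adjusted p among the 42 was 0.0893.

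Cxcl13, the B cell attractant of lymphoid follicles that binds Cxcr5, was higher in cecal tumors. Its brighter probe set was at 68.9, 46.9 and 59.9 in duodenal tumors against 153.3, 230.8 and 134.8 in cecal ones. All duodenal tumors were dim, so it was tested only through the cecal ones, with its direction set largely by the filter. Cecal tumor 2 was the highest, and the cecal mean was at least 1.68-fold above the duodenal mean (log2 difference 1.32 ± 0.24 SE, adjusted p = 0.0128). With the male arrays alone, which leave out both tumors numbered 2, the difference was 0.99 and did not pass (adjusted p = 0.0895). The dimmer probe set, at 95.4, 60.1 and 49.7 against 117.2, 233.6 and 99.4, did not overlap and did not pass (0.93 ± 0.33, adjusted p = 0.136).

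Cxcr5 lay between 3.9 and 27.8 on all arrays. Of 11 B and plasma cell markers on the array, 7 were dim on every array, among them the B cell genes Ms4a1, Cd79b and Pax5. Their sum was 9420.8 to 17158.5 in duodenal and 11761.0 to 16341.9 in cecal tumors, and none of 3 tested passed. The lymphoid and dendritic cell ligands Ccl17 and Ccl22 ran from 8.4 to 54.7 and from 26.6 to 72.3, and Ccr7, the receptor that guides cells to lymph nodes, from 4.3 to 33.1. A left-out probe set that lists several Ccl21 genes was bright enough, at 260.8, 131.7 and 167.4 against 430.7, 207.0 and 273.4. It overlapped and did not pass (0.65, adjusted p = 0.251). The left-out probe set that lists Ccl19 lay between 3.9 and 28.6.

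Cxcr4, the receptor of the stromal ligand Cxcl12, differed between the sites, unlike the other tested receptor genes Ccr1, Cx3cr1, Ackr1 and Ackr3, none of which passed. It was at 239.4, 277.0 and 258.2 in duodenal tumors against 73.5, 115.4 and 131.5 in cecal ones. The duodenal tumors lay within a narrow range, and cecal tumor 1 fell below the dim level. The log2 difference was -1.19 ± 0.21 (SE; adjusted p = 0.0119), and it was -1.20 with the male arrays alone, where it did not pass (adjusted p = 0.0726).

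Its ligand leaned the other way without passing. The brighter Cxcl12 probe set was at 434.3, 291.1 and 495.1 in duodenal tumors against 1069.6, 403.7 and 556.2 in cecal ones, overlapping through cecal tumor 2 (log2 difference 0.63 ± 0.34 SE, adjusted p = 0.32). The dimmer one was at 147.7, 180.0 and 144.0 against 272.9, 303.1 and 159.6 (0.55 ± 0.24, adjusted p = 0.214), and without cecal tumor 3 the difference was 0.82 (adjusted p = 0.0384). Ackr3, the atypical receptor that takes up Cxcl12, was at 382.0, 469.0 and 346.1 against 536.4, 475.8 and 463.2 (0.30 ± 0.15, adjusted p = 0.29).

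Stromal markers were higher in cecal tumors in part. The 10 fibroblast and stroma genes summed to 12192.0 to 15591.7 in duodenal and 17425.1 to 21759.3 in cecal tumors. Of 10 tested, 3 were higher in cecal tumors, Col3a1, Fap and Thy1, where 5.24% of all tested probe sets were. With the replicate number as a block Col1a1 joined them (adjusted p = 0.0102). Col3a1, a fibrillar collagen, differed by 0.73 (adjusted p = 0.0173), which did not pass without duodenal tumor 1 (0.0647) or cecal tumor 1 (0.058). Fap, a marker of activated fibroblasts, had a cecal mean at least 1.44-fold above its duodenal mean (adjusted p = 0.0262), was dim in all duodenal tumors and so was tested only through the cecal ones, and without duodenal tumor 3 or any 1 cecal tumor its adjusted p was 0.05 to 0.0973. Thy1, a fibroblast and T cell surface protein, differed by 0.94 (adjusted p = 0.0325), and without any 1 tumor but duodenal tumor 1 its adjusted p was 0.0713 to 0.105. Endothelial markers summed to 1377.1 to 1530.9 and 1412.1 to 1573.1, and none of 7 tested passed. With the replicate number as a block 1 of them passed, Prox1, with duodenal tumors higher. Their part in the Cxcl12 and Cxcr4 values was not tested.

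The neutrophil-attracting ligands, which signal through Cxcr2, varied among cecal tumors. Cxcl1 was at 241.3, 188.3 and 169.3 in duodenal tumors against 199.0, 512.4 and 413.9 in cecal ones. Cecal tumor 1 lay within the duodenal range and the other cecal tumors above it. The log2 difference was 0.78 ± 0.32 (SE) and did not pass (adjusted p = 0.188), but without cecal tumor 1 it was 1.16 (adjusted p = 0.0248).

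Cxcl2 showed the same arrangement, at 140.5, 140.0 and 73.6 in duodenal tumors against 75.8, 371.7 and 403.5 in cecal ones. The difference was 0.92 ± 0.55 (SE; adjusted p = 0.369), or 1.64 without cecal tumor 1 (adjusted p = 0.0241). Cxcl5 was at 289.3, 155.5 and 136.0 against 67.7, 96.1 and 319.2, where cecal tumor 3 was the highest and cecal tumor 1 the lowest of all (-0.45 ± 0.50, adjusted p = 0.652). Cxcl15 lay between 4.8 and 33.0, and the receptor gene Cxcr2 between 4.4 and 20.1.

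Neutrophil markers were uneven among tumors. S100a8, a calprotectin subunit of neutrophils, was at 144.8, 58.9 and 30.9 in duodenal tumors against 93.6, 154.1 and 825.3 in cecal ones, highest in cecal tumor 3. S100a9, its partner, was at 149.3, 21.9 and 23.5 against 71.5, 155.5 and 656.7. Cd177, the brightest marker of the list, was at 382.4, 971.1 and 123.8 against 706.1, 1199.7 and 1612.7 (log2 difference 1.57, adjusted p = 0.179). Among duodenal tumors it was highest in tumor 2, while S100a8 and S100a9 were highest in tumor 1. The list summed to 392.5 to 1306.1 in duodenal and 1149.4 to 3440.6 in cecal tumors. None of 3 tested genes passed, and 7 of 10, among them Csf3r, Mpo and Mmp8, were dim on all arrays. Il1b, an inducer of these ligands named after its values were seen, was at 182.3, 123.4 and 101.4 against 106.9, 423.8 and 436.7, low in cecal tumor 1 like Cxcl1 and Cxcl2 (log2 difference 0.97, adjusted p = 0.273). The part of neutrophils or of Il1b in these values was not tested.

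**Figure D4:**
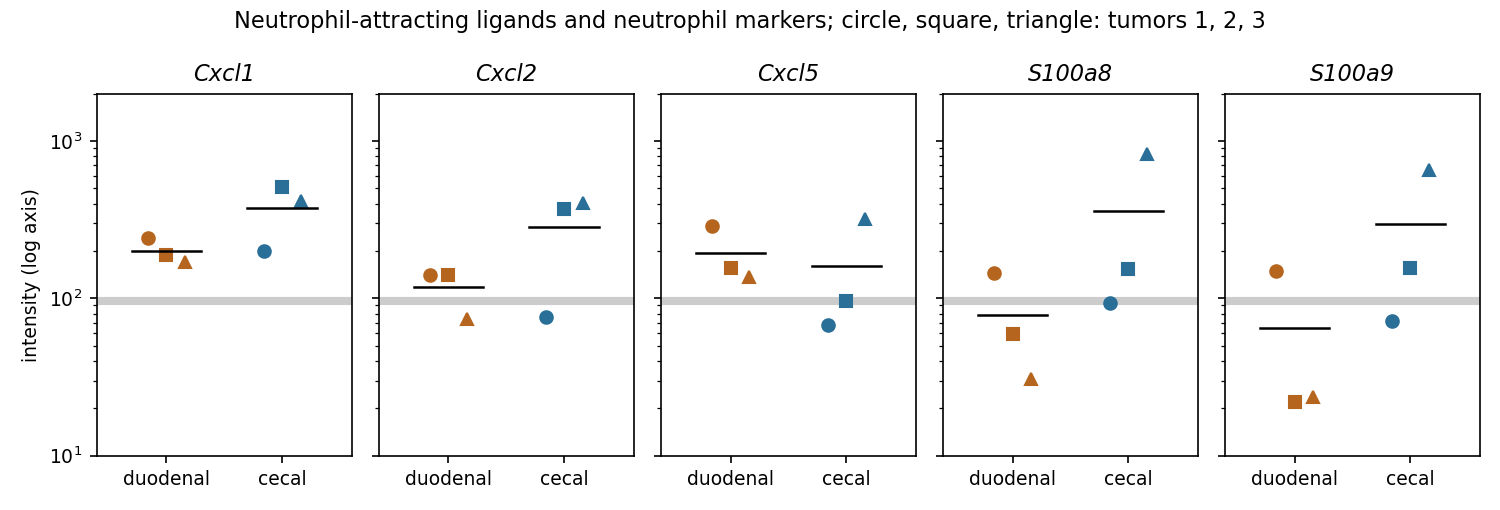
Intensity on a log axis of the neutrophil-attracting ligands Cxcl1, Cxcl2 and Cxcl5 and of the neutrophil markers S100a8 and S100a9; circle, square and triangle are tumors 1, 2 and 3 of a site, bars are means of 3 and the grey band is the 40th percentile of the arrays. Cecal tumor 1 (circle) is the lowest cecal tumor for all 5 genes.

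The ligands of Cxcr3, which interferon gamma induces and which draw effector T cells, were dim at both sites. Cxcl9 lay between 3.1 and 61.8, Cxcl10 between 29.4 and 48.5, and the Cxcl11 probe sets between 16.1 and 50.5. One Cxcl11 probe set did not overlap, at 17.5, 22.3 and 29.6 in duodenal tumors against 44.3, 35.9 and 50.5 in cecal ones, but its partner did, and neither was tested. Cxcr3 itself lay between 64.8 and 88.6, and Ifng between 4.1 and 20.1. Of 15 T and NK cell markers on the array, 10 were dim on every array, Cd3d, Cd3g, Cd4 and Cd8a among them. They summed to 632.7 to 872.8 in duodenal and 786.7 to 937.9 in cecal tumors, and none of the 2 tested passed. Dendritic cell, mast cell and smooth muscle markers, with 2, 5 and 6 genes tested, also gave no call.

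Most other interferon response genes were bright enough to be tested. Of 15 tested genes of that list, 5 passed with cecal tumors higher and none with duodenal tumors higher. Over all tested probe sets, 5.24% passed with cecal and 4.07% with duodenal tumors higher. The list median was 0.29 against -0.04 over all tested probe sets. Irf7, an interferon regulatory factor, had means of 164.7 ± 16.3 in duodenal and 532.3 ± 177.3 in cecal tumors (SD, n = 3 each; log2 difference 1.55, adjusted p = 0.00653, or 0.0529 with the male arrays alone). The others were Irf8 (0.89, adjusted p = 0.0122, or 0.0524 without cecal tumor 1) and Irf1 (0.80, adjusted p = 0.0148, or 0.053 without duodenal tumor 3 and 0.0542 without cecal tumor 1). Ifngr1, a receptor chain for interferon gamma, differed by 0.74 (adjusted p = 0.0168, or 0.0632 without cecal tumor 1 and 0.0672 without cecal tumor 2). Ifit1, dim in all duodenal tumors and tested only through the cecal ones, had a cecal mean at least 1.55-fold above the duodenal mean (adjusted p = 0.0245). It did not pass without cecal tumor 1 (0.0973), 2 (0.0589) or 3 (0.066). Several tested genes of the list leaned the other way without passing: Iigp1 (-0.34), Psmb8 (-0.27), Igtp (-0.21), Psmb9 (-0.21), Gbp2 (-0.19), Irf9 (-0.19) and Tap1 (-0.13). Irgm1 (0.47), Ifngr2 (0.40) and Stat2 (0.29) leaned to cecal tumors without passing.

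Several ligands of epithelium and stroma did not pass. Cxcl14, a ligand of mucosal epithelium and fibroblasts, was at 577.8, 634.6 and 454.5 in duodenal tumors against 444.4, 903.6 and 795.1 in cecal ones. Cecal tumor 1 was the lowest of all 6 and the others the highest, for a log2 difference of 0.31 ± 0.26 (SE; adjusted p = 0.547). Its second probe set was at 378.1, 596.8 and 337.1 against 452.9, 803.0 and 591.7 (0.48 ± 0.26, adjusted p = 0.317).

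Cxcl16, a membrane-anchored ligand of Cxcr6, was at 401.4, 504.6 and 384.0 in duodenal tumors against 397.1, 515.0 and 484.0 in cecal ones, with overlapping ranges (0.11 ± 0.16, adjusted p = 0.74). Its second probe set had 336.7, 452.7 and 280.1 against 301.4, 354.6 and 437.3 (0.04 ± 0.21, adjusted p = 0.934). Cxcr6 stayed between 18.2 and 89.4 on both of its probe sets.

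Cx3cl1, fractalkine, a membrane-anchored chemokine of epithelium and endothelium, was at 277.2, 203.3 and 294.8 in duodenal tumors against 253.4, 331.9 and 278.9 in cecal ones (0.16 ± 0.18, adjusted p = 0.671). Its second tested probe set, at 121.0, 103.0 and 117.8 against 166.8, 161.1 and 137.4, did not overlap and did not pass (0.40 ± 0.17, adjusted p = 0.207). Its dimmest probe set lay between 1.5 and 28.0. Cx3cr1, its receptor on resident macrophages, was at 136.8, 182.0 and 196.1 against 135.7, 181.5 and 216.8, with nearly the same range at both sites (0.04 ± 0.21, adjusted p = 0.936), and a second probe set lay between 16.5 and 86.6. Xcl1 and its receptor gene Xcr1, which mark a lymphocyte to dendritic cell axis, ran from 12.5 to 50.1 and from 8.5 to 53.2.

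The atypical receptors gave no call. Ackr1, the Duffy receptor of venules, was at 121.3, 65.9 and 149.6 in duodenal tumors against 114.5, 167.9 and 131.6 in cecal ones (0.31 ± 0.28, adjusted p = 0.578). Ackr2, which clears inflammatory CC chemokines, did not overlap on its brighter probe set, at 42.9, 38.9 and 35.8 against 82.1, 56.5 and 54.6, but was dim throughout. Ackr4, which takes up Ccl25 and the Ccr7 ligands, lay between 4.0 and 46.0. The remaining receptors were dim as well: Ccr4 lay between 7.6 and 40.4, Ccr8 between 1.3 and 6.7, and Ccr1l1 between 13.1 and 45.8.

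Over the 5 pathway lists, 13 of 67 tested genes passed (19.4%), where 9.31% of all tested probe sets did. With 1 probe set a gene, as in the lists, 884 of 8124 passed over the whole array. The lists were chosen with earlier results of these data known, so their share is no test of the lists. Dpp4 and Ifit1 among the 13 were tested only through the cecal tumors. Of 14 tested genes that process or present chemokines, 3 passed with cecal tumors higher and none the other way (median -0.06). Dpp4, the peptidase that trims and inactivates several chemokines, had means of 62.4 ± 15.9 and 265.6 ± 40.8, for a cecal mean at least 2.62-fold above the duodenal one (adjusted p = 0.00176). It was dim in all duodenal tumors and entered the test only through the cecal ones, which largely sets its direction. The gelatinase gene Mmp9 had means of 99.6 ± 29.4 and 280.3 ± 57.5 (log2 difference 1.37, adjusted p = 0.00967), and Mmp2, another gelatinase gene, differed by 0.84 (adjusted p = 0.0201, or 0.0656 without duodenal tumor 1, 0.0857 without cecal tumor 2 and 0.0567 without cecal tumor 3).

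Of 16 tested genes of receptor signalling, 2 passed with duodenal tumors higher and none the other way (median -0.01). With the replicate number as a block 1 passed each way, Gnai1 and, with cecal tumors higher, Gnb1 (adjusted p = 0.0479). Gnai1, an inhibitory G protein subunit, had means of 970.9 ± 332.9 in duodenal and 384.4 ± 99.6 in cecal tumors (log2 difference -1.28, adjusted p = 0.027). That call was lost without duodenal tumor 1 (0.0803) or 3 (0.077) and without cecal tumor 1 (0.0592) or 2 (0.0902). Elmo1, which links receptors to Rac, differed by -0.63 (adjusted p = 0.0454), and did not pass once any 1 tumor was left out (0.0518 to 0.136), with the replicate number as a block (0.0553), with quantile normalization (0.0509) and with median centring (0.053). Gnai3, a further subunit of that class, had 0.42 and did not pass (adjusted p = 0.0606).

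Of 18 tested NF-kB and cytokine genes, 2 passed, both with cecal tumors higher (median 0.13). Relb, an NF-kB subunit, differed by 0.83 (adjusted p = 0.0322), which passed without duodenal tumor 1 (0.0282) but not without any other tumor (0.0579 to 0.106). Il17rc, an interleukin 17 receptor chain, differed by 0.92 (adjusted p = 0.0399), which did not pass without duodenal tumor 2 (0.0962) or 3 (0.12) or cecal tumor 1 (0.124) or 2 (0.0875). Il33, an alarmin of stroma and epithelium, had -1.09 (adjusted p = 0.068, but 0.00804 in a fit blocked on the replicate number and 0.00612 without duodenal tumor 2). Among 4 tested chemokines and related genes outside the symbol rule, Pf4, the platelet chemokine Cxcl4, had means of 286.0 ± 82.6 and 499.3 ± 57.4 (log2 difference 0.80, adjusted p = 0.0478, or 0.0849 to 0.166 when any 1 tumor other than duodenal tumor 3 was left out). Mif, a cytokine that also binds Cxcr4, differed by 0.05 (adjusted p = 0.883), and Rarres2, which encodes the attractant chemerin, by 0.08 (adjusted p = 0.908). Of the 13 genes of these 5 lists that passed, 4 passed with the male arrays alone, Dpp4, Mmp9, Irf1 and Gnai1.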

How the data were processed

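Values were linear probe set intensities deposited by the authors, made with MAS5 per the submitters' processing notes. The sources used here give no version, scaling target, detection call or genome build. No normalization was added. Groups and replicate numbers came from the titles. Of 22690 probe sets, 64 controls were left out. A probe set above its array's 40th percentile on at least 3 of 6 arrays was tested: log2(intensity + 16), which understates changes of dim genes, limma 3.58.1 in R 4.3.3 (lmFit, eBayes with trend), two-sided, Benjamini-Hochberg over 13859 probe sets, threshold 0.05. Probe sets of a gene were tested separately, and lists use the brightest. Where a whole site was below the percentile, the fold is a bound: the bright site's mean log2 intensity over the dim site's percentile. Errors are SD over 3 tumors or the limma SE.

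Named by rule were members that passed, those whose brightest tested probe set did not overlap, those above the 80th percentile on all 3 arrays of a site, and their receptors or ligands. Of the pathway lists the rule took genes that passed and up to 3 of smallest p. The other members were added for completeness. The marker genes Muc5ac, Gast, Gkn1, Cd14, Cd177, S100a8 and S100a9 were picked after their values were seen. So were Il1b and the interferon response genes named without a call. Members, lists and motifs were chosen with earlier results of these data known. All 71 member probe sets matched a RefSeq gene (GRCm38.p6), used for names.

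Same-number tumors had correlated deviations from their site means (0.273, 0.299 and 0.203; other pairs -0.2 to -0.026), which meets the criterion for pairing, from the data alone; all tests given are unpaired, with the replicate number as a block as an alternative. Both tumors numbered 2 came from female mice by Xist and Y-linked genes. The labels do not say what the replicate numbers shared by the sites mean. The procedure was tested on simulated data. Figures used matplotlib 3.10.9.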

Additional observations from a re-analysis of the deposited data

How the results depend on the processing

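The 9 chemokine probe sets that passed also passed with an offset of 1 or 64, no filter, quantile normalization, median centring, no trend, array weights and the replicate block (9 called each). The replicate block changed no call of a chemokine or receptor probe set. Without single tumors 9 to 11 were called and all 9 remained; over all probe sets 658 to 1193 were called instead of 1290. With the male arrays alone 5 chemokine probe sets and 692 in all were called, and with a filter at the 60th percentile 5 chemokine probe sets of only 13 tested. With a filter on the mean of all 6 arrays, 8 were called, and Ccl20 was not tested. Array weights gave 1936 calls in all, and an adjusted p threshold of 0.01 gave 506, with 7 chemokine probe sets. One probe set a gene left 7.

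No called chemokine probe set reversed under any of these alternatives. Among uncalled ones, the male arrays alone turned Cx3cl1 (-0.10), Ackr1 (-0.12), Ccl11 (0.19) and Ccl6 (-0.05), and array weights turned Ccl6 (-0.10 and -0.12 for its probe sets). Without single tumors the log2 difference ran from -0.10 to 0.21 for Cx3cr1, -0.42 to 0.24 for Ccl11, -0.22 to 0.34 and -0.11 to 0.61 for the Ccl6 probe sets, and -0.11 to 0.22 for the dimmer Cxcl16 probe set. The causes were not tested. Most receptors lay too near the dim level to be compared.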
